A study of Mus musculus with 2 samples.

Results

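The genes described here encode the signalling part of the B cell antigen receptor and the proteins that act next to it at the membrane. The list holds 9 genes, Cd79a, Cd79b, Cd22, Cd72, Blk, Lyn, Syk, Btk and Blnk, and every probe set with a single platform gene symbol among them was read. This gave 12 probe sets for 8 genes, of 18193 genes and 45037 probe sets without controls. Lyn was not analysed here. The study placed splenic antigen-presenting cells (APCs) of wild-type C57BL/6 mice, females 10 weeks old, overnight with CD4+ T cells bearing the P25 T cell receptor, and measured RNA of the APCs enriched afterwards. P25, a mycobacterial peptide that this receptor recognises on MHC class II, was added to one culture (P25) and medium alone to the other (medium), and the P25 receptor T cells were present in both. RNA of 3 independent experiments was mixed for each of the 2 arrays, so 1 array per condition left no spread between replicates, no p-value and no test. Every difference below describes these 2 arrays, and how the APCs were enriched is not given in the sources used here.

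B cells sense antigen through a membrane immunoglobulin that has almost no cytoplasmic tail of its own and relies on the Cd79a and Cd79b chains. Their tyrosine motifs are phosphorylated by SRC family kinases such as LYN and BLK, SYK docks there, and SYK phosphorylates the adaptor BLNK, on which BTK and phospholipase C gamma meet. CD22 and CD72 carry inhibitory tyrosine motifs that recruit the phosphatase SHP-1 and raise the threshold of the signal. In spleen, B cells are a main class of APC besides dendritic cells and macrophages, and Syk, Btk, Lyn and Cd72 are also transcribed in myeloid cells.

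Signals are MAS5 intensities, a linear summary of a probe set's hybridization. The 12 probe sets had signals from 60.8 to 3903 on the P25 array and from 180.05 to 7087.5 on the medium array, all above the floor of 10.3 that was set for dim signals (the 40th percentile of both arrays). All 12 were lower with P25, and so were all 8 genes when each was represented by its brightest probe set. The median log2 ratio of P25 over medium was -0.71, or 1.63-fold lower, against a median of 0.019 over the 12897 measured genes, of which 48.6% were below 0. Blk and Btk were at least 2-fold lower, 2 of 8 genes (25%), against 7.22% of all measured genes. None was at least 2-fold higher, against 9.43% of all measured genes. At least 1.5-fold lower were 7 of 8, all but Cd22, against 18.3% of all measured genes. The share of genes past 2-fold in the lower direction was 6.25% among the 6914 genes of mean signal 100 or more, a comparison chosen after the data were seen because all 8 genes are that bright. By probe set, 3 of 12 (25%) were at least 2-fold lower, against 8.37% of the 29549 measured probe sets. The genes share the same 2 arrays, so the 8 ratios are not replicates.

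**Figure D1:**
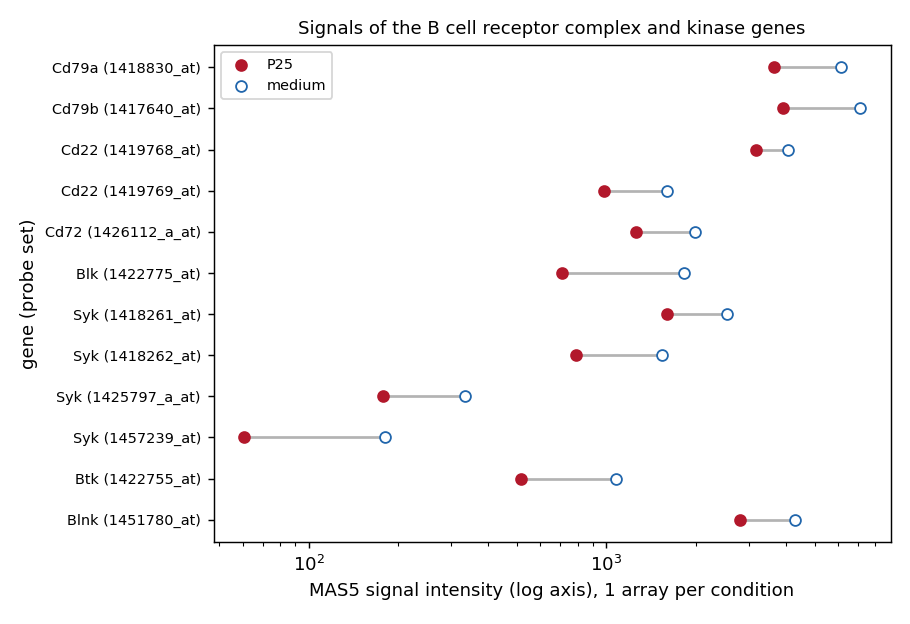
Signals of the 12 probe sets on the P25 array (filled red) and the medium array (open blue), on a log axis of MAS5 intensity; the grey line joins the 2 arrays and there is no error bar because each condition had 1 array. On every line the P25 point lies left of the medium point, with the widest gaps for Blk and for the Syk probe set 1457239_at.

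Cd79a and Cd79b are the paired chains that carry the receptor's signal into the cell, and both were lower with P25 within 2-fold. Cd79a (probe set 1418830_at) had a signal of 3655 with P25, against 6119 with medium, a log2 ratio of -0.74. Cd79b (1417640_at) had 3903 with P25, against 7087.5 with medium, a log2 ratio of -0.86. The chains, which form a heterodimer, had log2 ratios 0.12 apart. In both cases the P25 signal was between 55.1% and 59.7% of the medium signal. On their arrays these signals stood at percentiles 99.1 and 99.2 of all probe sets with P25, and 99.6 and 99.7 with medium. Saturation of signals at this level was not tested.

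Of the inhibitory receptors, Cd22 had the smallest difference of the 8 genes and Cd72 one near the median. Cd22, a sialic acid-binding receptor of B cells, had 3168 with P25, against 4072 with medium, on its brighter probe set (1419768_at), a log2 ratio of -0.36. Its other probe set (1419769_at) had 979 with P25, against 1591 with medium, a log2 ratio of -0.70. The probe sets thus gave 1.29-fold and 1.63-fold lower, in the same direction, and differed by 0.34. Cd72, a C-type lectin-like receptor found on B cells and some myeloid cells, had 1253 with P25, against 1986 with medium (1426112_a_at), a log2 ratio of -0.66.

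Blk had the lowest ratio of the genes read. This SRC family kinase is transcribed mainly in the B lineage. Its signal (1422775_at) was 708 with P25, against 1822 with medium, 2.57-fold lower (log2 ratio -1.36), and 2.81% of all measured genes had a lower ratio. Only 1 probe set read this gene, so no second one could be set beside it. Among genes at least 2-fold lower that had a second probe set above the floor on both arrays, 145 of 353 (41.1%) passed 2-fold lower on that one too, and 0 passed it in the higher direction.

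Btk, the TEC family kinase that activates phospholipase C gamma and whose loss in mice impairs B cell development and signalling, was next. Its signal (1422755_at) was 516 with P25, against 1074 with medium, 2.08-fold lower (log2 ratio -1.06). It lay close to the 2-fold line, and its log2 ratio was -0.91, which is under 2-fold, once the arrays were set equal in their median signal or in their spike-in controls.

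Syk, the kinase that docks on the phosphorylated Cd79 chains, was read by 4 probe sets. The brightest (1418261_at) had 1596 with P25, against 2546 with medium, a log2 ratio of -0.67. The second (1418262_at) had 792 with P25, against 1540.2 with medium, a log2 ratio of -0.96. The dimmer ones (1425797_a_at and 1457239_at) had log2 ratios of -0.91 and -1.57. The dimmest of all, 1457239_at, had 60.8 with P25, against 180.05 with medium. All 4 were lower with P25 and they spanned 0.89 on the log2 scale, with a median of -0.94, so the size of the Syk difference depended on the probe set: 1.60-fold on the brightest and 2.96-fold on the dimmest. Blnk, the adaptor that SYK phosphorylates, had 2799.5 with P25, against 4285 with medium (1451780_at), a log2 ratio of -0.61.

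In ascending order the log2 ratios ran Blk, Btk, Cd79b, Cd79a, Syk, Cd72, Blnk and Cd22, over a range of 1.00. As a technical gauge, log2 ratios of the brightest pair of probe sets of a gene differed with an SD of 0.37 over the 633 genes in which both had a mean signal of 500 or more, and of 0.46 over the 2616 genes in which both had 100 or more. All 7 gaps between neighbours in that order, the largest being 0.30 between Blk and Btk, were smaller than both SDs. Of the 28 pairs of genes, 12 differed by more than 0.37, the SD that matches the signals of these 8 probe sets, and 8 by more than 0.46, and the largest gap was between Blk and Cd22. This gauge covers disagreement between probe sets and not the spread between cultures.

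**Figure D2:**
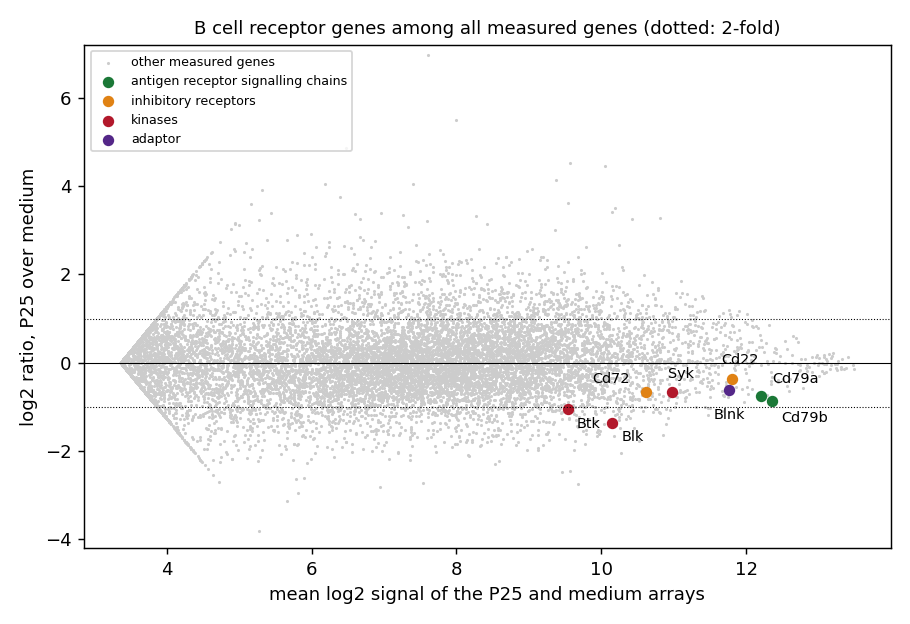
Log2 ratio of P25 over medium against mean log2 signal for 12897 measured genes (grey) and the 8 B cell receptor genes (coloured by role), 1 point per gene; dotted lines mark 2-fold. The 8 genes lie in the bright part of the plot and below 0, with Blk and Btk under the lower dotted line.

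RefSeq promoter sequences (assembly GRCm38.p6, 250 bases before to 50 after the start of the gene) were at hand for 6 of the 9 genes. They were searched for motifs of factors known from B cell promoters. Searched on both strands were the octamer ATTTGCAT bound by OCT factors, the ETS family core AGGAAGT and the EBF1 palindrome, TCCC and GGGA with any 2 bases between them. None overlapped another in these sequences. The motifs were chosen with the sequences in view, so the shares given beside them are a description and not a test. The ETS core was found in the promoters of Cd79a, Cd72 and Blnk, against 9.35% of 32851 RefSeq promoters of the same length. The octamer was found in that of Blnk, against 1.74% of all, and the EBF1 palindrome in that of Cd22, against 0.904% of all. These letters were not in the windows of Btk and of both Syk start sites. A match is only a match of letters. Sites that depart from these exact letters were not searched for, so a promoter without a match, such as that of Cd79a for EBF1, may still hold one. The promoters with a match are shown with the one of Btk, whose gene was at least 2-fold lower, 5′ to 3′ along the gene and with the motifs in capitals. They lie at chr7:24897247-24897546 (plus strand) for Cd79a, chr7:30878979-30879278 (minus strand) for Cd22, chr4:43454577-43454876 (minus strand) for Cd72, chr19:40994172-40994471 (minus strand) for Blnk and chrX:134583091-134583390 (minus strand) for Btk.
Cd79a: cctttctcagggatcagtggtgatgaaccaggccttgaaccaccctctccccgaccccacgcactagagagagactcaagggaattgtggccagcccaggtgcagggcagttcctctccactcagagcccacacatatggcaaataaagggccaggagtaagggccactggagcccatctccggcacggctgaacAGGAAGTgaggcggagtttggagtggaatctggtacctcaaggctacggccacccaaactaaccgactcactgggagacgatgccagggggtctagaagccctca
Cd22: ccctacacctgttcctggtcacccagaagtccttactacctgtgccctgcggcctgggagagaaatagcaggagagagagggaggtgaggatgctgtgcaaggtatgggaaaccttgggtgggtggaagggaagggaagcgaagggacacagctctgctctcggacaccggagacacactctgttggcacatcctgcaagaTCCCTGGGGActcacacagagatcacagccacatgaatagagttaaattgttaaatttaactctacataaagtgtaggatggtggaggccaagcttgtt
Cd72: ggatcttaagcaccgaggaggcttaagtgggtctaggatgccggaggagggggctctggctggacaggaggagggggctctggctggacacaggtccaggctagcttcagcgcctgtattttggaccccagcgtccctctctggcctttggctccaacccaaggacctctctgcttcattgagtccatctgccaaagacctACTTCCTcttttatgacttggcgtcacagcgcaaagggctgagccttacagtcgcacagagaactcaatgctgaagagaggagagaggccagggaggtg
Blnk: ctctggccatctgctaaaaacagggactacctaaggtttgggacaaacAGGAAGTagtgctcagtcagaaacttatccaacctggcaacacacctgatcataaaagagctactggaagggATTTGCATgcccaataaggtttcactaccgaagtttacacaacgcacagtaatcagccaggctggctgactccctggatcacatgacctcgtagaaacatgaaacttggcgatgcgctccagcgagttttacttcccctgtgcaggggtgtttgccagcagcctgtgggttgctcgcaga
Btk: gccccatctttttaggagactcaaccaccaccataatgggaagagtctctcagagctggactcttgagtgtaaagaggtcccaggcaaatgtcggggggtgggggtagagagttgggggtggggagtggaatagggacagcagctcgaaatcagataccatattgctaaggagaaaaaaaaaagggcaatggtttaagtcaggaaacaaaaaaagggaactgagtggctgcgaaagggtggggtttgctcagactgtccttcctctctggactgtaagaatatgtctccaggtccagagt
The motif began at position -55 from the start site in Cd79a, at -49 in Cd22 and at -49 in Cd72, where it reads ACTTCCT on the gene's strand. In Blnk the ETS core began at -202 and the octamer at -130.

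Immunoglobulin and coreceptor genes, which complete the receptor at the cell surface, were lower within 2-fold. Of 6 listed, 3 were read, with log2 ratios from -0.45 to -0.23 and a median of -0.27, a range that overlapped that of the 8 receptor genes at Cd22. Ighm, the constant region of IgM, had 7967 with P25, against 9347 with medium, a log2 ratio of -0.23, but its 9 probe sets ran from -0.92 to -0.23. Cr2, the complement receptor of the B cell coreceptor, had 689 with P25, against 939 with medium, the lowest of the group.

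Genes that regulate the receptor signal included the lowest ratios of the pathway. All 15 listed inhibitory receptors, phosphatases and ubiquitin ligases were measured, and 14 had a log2 ratio below 0. Of the 15, 6 were at least 2-fold lower (against 7.22% of all measured genes) and 0 at least 2-fold higher. The list was chosen with earlier results of these data known, so the share beside it is a description and not a test. The median log2 ratio of the list was -0.63. These values are of the brightest probe set, and the 3 probe sets of Ptpn11 ran from -0.08 to 1.09. Pirb, a paired immunoglobulin-like inhibitory receptor of myeloid and B cells, had 87.5 with P25, against 322 with medium, a log2 ratio of -1.88. Ptpn22, a tyrosine phosphatase that acts on SRC family kinases, had 236 with P25, against 860 with medium, a log2 ratio of -1.87. Dok3, an adaptor that restrains BTK and calcium signalling, had 219.9 with P25, against 731 with medium, a log2 ratio of -1.73. The other 3 were Inpp5d (-1.23), which encodes the lipid phosphatase SHIP1, Siglecg (-1.12), a B cell lectin related to CD22, and Pecam1 (-1.02). After median or spike-in scaling 4 of the 15 were at least 2-fold lower, without Siglecg and Pecam1. Ptpn6, which encodes SHP-1, the phosphatase that CD22 and CD72 recruit, had 2764 with P25, against 2985 with medium, a log2 ratio of -0.11 that was 0.21 on its other probe set. Csk, the kinase that switches SRC family kinases off, was at -0.63. The highest was Lair1, at 0.30 with a signal of 31.4 with P25, against 25.5 with medium, and its probe sets ran from -0.77 to 0.30.

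Downstream adaptors, exchange factors and PI3K subunits went both ways. On their brightest probe set all 13 listed were within 2-fold, 8 below 0 and 5 above. The 3 probe sets of Vav2 ran from -0.26 to 1.38. The median log2 ratio of the list was -0.13 on the deposited scale, 0.017 after median scaling and 0.023 after spike-in scaling. Pik3cd, the PI3K catalytic subunit of leukocytes, had the lowest ratio (-0.53, though its 5 probe sets ran from -0.75 to 0.65), and Grb2, an adaptor of RAS activation, the highest (0.48, and -0.57 on its other probe set). Plcg2, the phospholipase that BTK activates, had 1601 with P25, against 1872 with medium, a log2 ratio of -0.23.

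In the calcium and PKC branch, all 13 measured genes had a log2 ratio below 0 on their brightest probe set (median -0.50), and 1 was at least 2-fold lower. That gene was Itpr2, a calcium channel of the endoplasmic reticulum, with 115.6 with P25, against 245 with medium (-1.08), but its 6 probe sets ran from -1.08 to 1.10, and no gene of the branch was at least 2-fold lower after either rescaling. Nfatc1 followed at -0.90 (probe sets from -0.90 to 0.28), and Prkcb, the protein kinase C of B cells, had 1777 with P25, against 2798 with medium, a log2 ratio of -0.65. The highest was Ppp3cb, a calcineurin subunit, at -0.08, with 5 probe sets from -0.86 to 0.68.

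Other kinases of the SRC, TEC and SYK families were mostly dim. Of 8 measured of 11 listed, 6 had a log2 ratio below 0, with a median of -0.45. Tec, the founding member of the family of BTK, had 483 with P25, against 988 with medium, a log2 ratio of -1.03, and was no longer at 2-fold after either rescaling (median or spike-in). Src was above the floor with P25 alone, with a signal of 25.5, against 2.92 with medium, at least 2.48-fold higher, and with the floor at the 60th percentile (38.6) it was below it on both arrays. Fyn, a SRC family kinase of lymphocytes and other cells, had 289 with P25, against 536 with medium, a log2 ratio of -0.89.

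**Figure D3:**
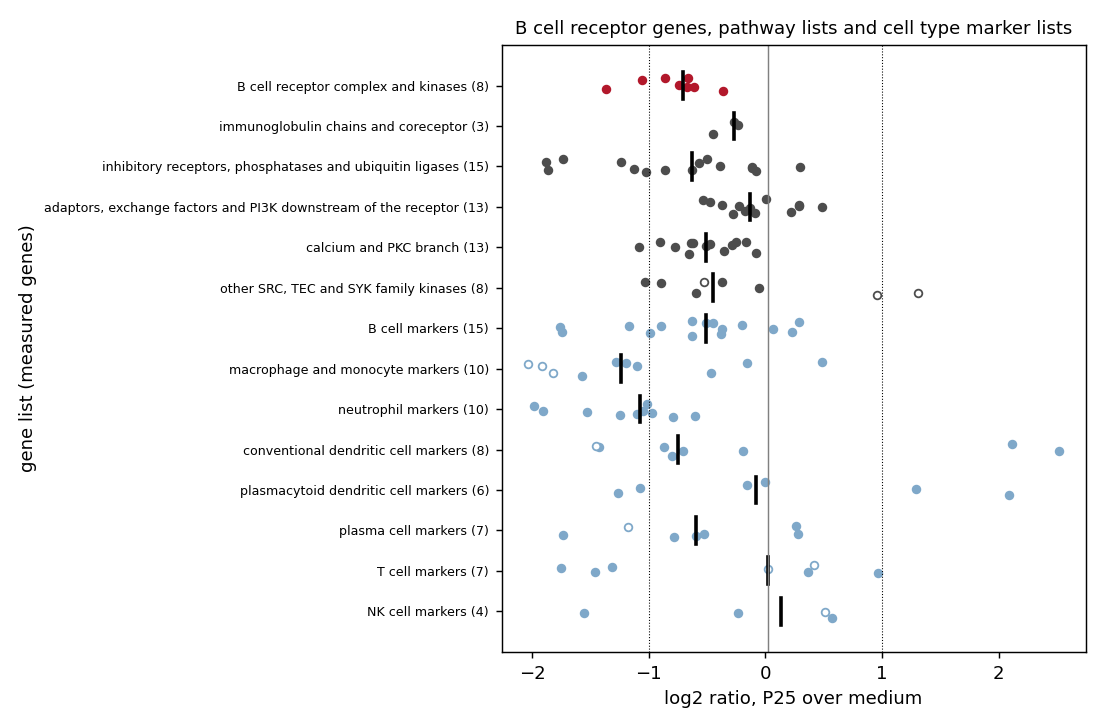
Log2 ratio of P25 over medium for each measured gene of the receptor list (red), 5 pathway lists (dark grey) and 8 cell type marker lists (blue), 1 point per gene with a small vertical offset so that points do not cover each other; open points are bounds because 1 array was at the floor, black bars are list medians, the grey line is the median of all genes and dotted lines mark 2-fold. The receptor genes, the immunoglobulin and coreceptor list, the calcium and PKC branch and the neutrophil markers lie wholly below 0, and the other lists straddle it.

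Bulk RNA cannot separate fewer cells of a type from less RNA per cell, so the levels of marker genes are given beside the receptor genes. Of 16 B cell markers that are not receptor genes, 15 were measured, 12 had a log2 ratio below 0, 3 were at least 2-fold lower and 0 higher. Their median was -0.51, and their summed signal was 28227 with P25 and 36848 with medium. They ranged from Ralgps2 (-1.76) to Cxcr5 (0.29), a chemokine receptor of follicular B cells. Among the markers bright on both arrays, Ms4a1, which encodes CD20, had 5911 with P25, against 5041 with medium (0.23). Fcer2a, which encodes CD23, had 2381 with P25, against 2731 with medium (-0.20). Both were picked after their values were seen and lie above the median of the list, in which only 3 markers were above 0. Fcmr, also bright, had 2957 with P25, against 5487 with medium (-0.89). Cd37 had 2825 with P25, against 4025 with medium (-0.51, and -0.80 on its other probe set). Pax5 (-0.63, and -1.12 on its other probe set) and Ebf1 (-1.17, with 5 probe sets up to -0.27), transcription factors of B cell identity, were lower. The range of these markers is wide, and the receptor genes lay inside it, with a median of -0.71 against -0.51. On the brightest probe set, all receptor genes but Cd22 were below the marker median, and the other Cd22 probe set was at -0.70. With the median over probe sets, the marker median was -0.63, and Blnk (-0.61) and Cd22 (-0.53) were above it. Of the 15 markers, 2 had a lower ratio than Blk and 3 a lower one than Btk. A lower ratio than Cd79a, Cd79b, Cd72 and Syk was found for 5, than Blnk for 7 and than Cd22 for 11. Cr2 and Bank1 are also in the pathway lists. The part of B cell number in the ratios of the receptor genes was not tested.

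Syk, Btk and Cd72 are not restricted to B cells, and markers of myeloid cells were lower on the same arrays. Of 10 measured macrophage and monocyte markers of 14 listed, 7 were at least 2-fold lower. Their log2 ratios had a median of -1.24 and ran from Ccr2 (at least 4.09-fold lower, with probe sets from -2.03 to -0.13) to Fcgr1 (0.49, with probe sets from -0.42 to 0.49), and the summed signal was 1404 with P25 and 3296 with medium. C1qa, C1qc and Marco were below the floor on both arrays. Of 10 measured neutrophil markers of 12 listed, all were below 0 and 7 at least 2-fold lower. Their median was -1.07 and they ran from Mpo (-1.98) to S100a8 (-0.60), and a summed signal of 7287 with P25 and 13527 with medium. Conventional dendritic cell markers had 2 of 8 at least 2-fold lower and 2 higher, and 6 were below 0, with a median of -0.75. They ran from Cadm1 (at least 2.74-fold lower, and -0.25 on its other probe set) to Zbtb46 (2.52, with probe sets from 1.36). Their summed signal was 479 with P25 and 431 with medium, of which Ly75 gave 232 with P25 and 53.6 with medium. Plasmacytoid dendritic cell markers had 2 of 6 at least 2-fold lower and 2 higher, among them Klk1 (1.29, with 4 probe sets from -0.61 to 1.29). The markers ran from Ccr9 (-1.26, with 5 probe sets up to -0.025) to Bst2 (2.09), with a median of -0.08. Their summed signal was 1849.7 with P25 and 1631 with medium. Tcf4 gave 1134 of it with P25 and 1265 with medium, and Bst2 480 with P25 and 112.6 with medium. Plasma cell markers had 2 of 7 at least 2-fold lower and 0 higher, from Sdc1 (-1.73) to Xbp1 (0.28), with a median of -0.60 and a summed signal of 8089.7 with P25 and 10938 with medium. The part of these cells in the ratios of the receptor genes was not tested.

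T cells were in both cultures. Of their markers, Cd3e, Cd3d and Cd4 were below the floor on both arrays. Cd3g, another CD3 chain, was dim but above the floor on both, with 21.6 with P25, against 11.1 with medium. Of the 7 measured T cell markers of 12 listed, 3 were at least 2-fold lower and 0 higher. The 7 ran from Cd2 (-1.75) to Cd3g (0.96), and the median was 0.024. The summed signal of the 7 was 476 with P25 and 1332 with medium. Most of it came from Cd2, with 339 with P25 and 1139.7 with medium, so the sum was not read as a measure of T cells. NK cell markers had 1 of 4 at least 2-fold lower and 0 higher, from Klrd1 (-1.55) to Nkg7 (0.57), with a median of 0.14 and a summed signal of 81.5 with P25 and 124.1 with medium.

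The direction of the 8 receptor genes did not turn under any of the 8 alternative settings for floor, scaling and probe set choice (7 for Cd72, which was not read under one of them), whereas the sizes shifted with the scaling. The floor settings could hardly move these bright genes, and the probe set settings could not move the ratio of a gene with 1 probe set. After median scaling the median log2 ratio was -0.56 for the receptor genes and 0.15 for all genes, and after spike-in scaling it was -0.56 for the receptor genes and 0.16 for all genes. Relative to the median of all genes, the receptor genes were at -0.73 on the deposited scale, -0.71 with either of those scalings and -0.94 with loess. Calls past 2-fold over all genes were 56.6% in the higher direction on the deposited scale, 71.0% after median scaling and 71.7% after spike-in scaling. Blk was at least 2-fold lower under all 8 settings, from -1.54 with loess to -1.21 with spike-in scaling.

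**Figure D4:**
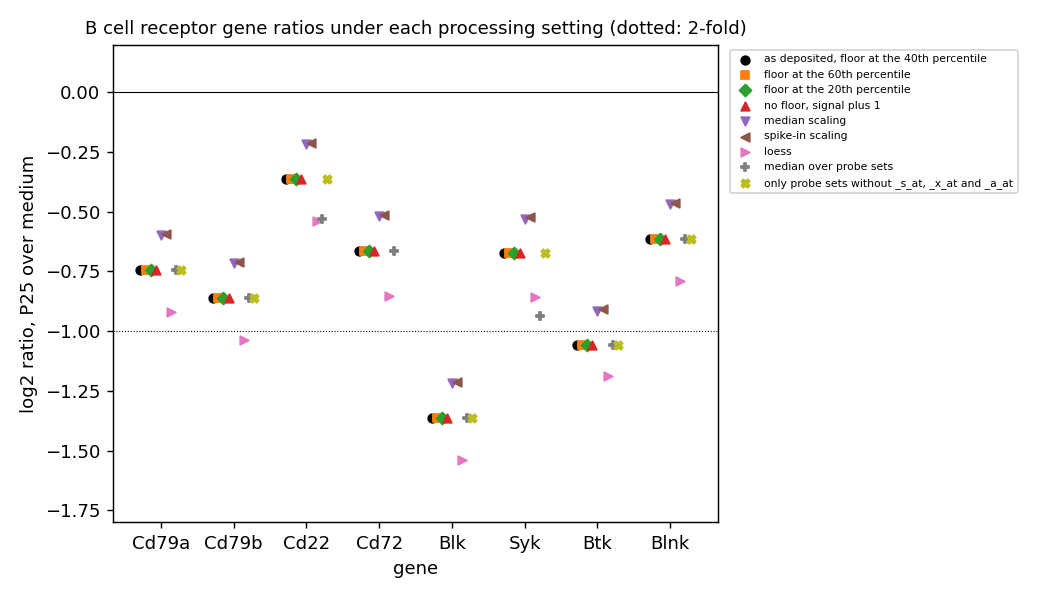
Log2 ratio of P25 over medium of each receptor gene on the deposited scale with the floor at the 40th percentile (black) and under 8 other settings (coloured symbols); dotted line, 2-fold lower. All points lie below 0, median and spike-in scaling move every gene up by the same step, loess moves every gene down, and Cd72 has no point where only probe sets without the suffixes _s_at, _x_at and _a_at were used.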

How the data were processed

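RNA of splenic APCs was measured on 2 arrays, 1 per condition, from 1 µg of total RNA per labelling, per the labels' protocols. The deposited values are MAS5 signal intensities on a linear scale from GCOS, as the submitters' processing notes list. Software versions, scaling target and detection calls were not used here. Because MAS5 takes mismatch probes off the signal, dim ratios carry more noise. The number of arrays limits the precision, and batch cannot be told apart from treatment.

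Groups came from the treatment label. Signals under the 40th percentile of both arrays without controls (10.3) were raised to that floor, and ratios with 1 array on it are bounds. Names came from the platform's annotation of probe sets, brought up to date by Entrez number with RefSeq (GRCm38.p6): 34945 had 1 symbol, 932 several and 9160 none, and 204 of the first had no RefSeq match. The probe set with the highest mean log2 signal stood for its gene. Of 18193 genes, 12897 were measured, above the floor on at least 1 array. Signals of different genes were not compared, except that those of each marker list were summed. A gene was counted at 2-fold or more. The genes, lists and motifs were chosen with earlier results of these data known. All 9 receptor genes, and in each list the genes past 2-fold or the highest and lowest, are named. Other genes named with their values (Ptpn6, Ptpn11, Csk, Plcg2, Vav2, Nfatc1, Prkcb, Fyn, Ms4a1, Fcer2a, Fcmr, Cd37, Pax5, Ebf1, Ly75, Tcf4, Klk1) were added after their values were seen. The median of 18 spike-in probe sets was -0.15 in log2 ratio (SD 0.10 between probe sets). Alternatives changed the floor (20th or 60th percentile, or none with 1 added to each signal), the scaling (median, spike-in, loess), the probe set and the threshold (1.5-fold). The calculation was tested on simulated data. Python 3.11.15 and pandas 2.3.3 were used.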

Additional observations from a re-analysis of the deposited data

How the results depend on the processing

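With 1 array per condition no replicate could be left out. No paired analysis was possible because each condition has 1 array. A ratio was taken as unmoved when it shifted by less than 0.46 (the SD between probe sets of a gene), and a median when it shifted by less than that SD over the root of the number of genes. Every receptor gene's ratio stayed within this and below 0 under all settings run, and no receptor gene was at least 2-fold higher. The margin of 0.46 is wide, larger than the Cd22 ratio itself (-0.36). The count of receptor genes at least 2-fold lower was 2 on the deposited scale, 1 after median scaling and 1 after spike-in scaling, where Btk came under 2-fold, 3 with loess, where Cd79b was added (-1.04), and 7 at the 1.5-fold threshold. The share of all genes at least 2-fold lower was 7.22% on the deposited scale, 5.07% after median scaling, 4.94% after spike-in scaling and 6.51% after loess. At the 1.5-fold threshold it was 18.3% on the deposited scale. Counting all 12 probe sets, a choice made after the data were seen, 3 were at least 2-fold lower, against 8.37% of all measured probe sets. The median log2 ratio of the receptor genes moved to -0.89 with loess. That of the inhibitory receptors, phosphatases and ubiquitin ligases moved to -0.48 after either rescaling (median or spike-in) and -0.80 with loess. That of the calcium and PKC branch moved to -0.36, -0.35 and -0.64 under the same. That of the adaptor list moved to 0.017 with median and 0.023 with spike-in scaling. With the floor at the 60th percentile that of the other kinases moved to -0.89, since 3 of its genes were then measured. Genes at least 2-fold lower over all genes numbered 931 on the deposited scale, 591 with the floor at the 60th percentile, 1933 with it at the 20th and 2202 with no floor and 1 added to each signal; the higher ones numbered 1216, 908, 2438 and 2736. No cause was tested for the shifts with floor, scaling and loess. Signals far above the floor do not depend on it, which is the case for all receptor probe sets.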
